A study of Mus musculus with 74 samples.

Results

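The genes described here are 36 interferon-stimulated genes, chosen by name and looked up in both expression tables of a mouse reprogramming study. A row was found for 35 of them among the 21241 genes of the table for cells grown in NSC medium (neural stem cell medium), and for the same 35 among the 20558 genes of the table for a parallel experiment. Mx2, an antiviral GTPase, had no row in either table and has no values. The other 35 passed the filter on low values, which asks for 10 or more in 2 or more libraries of a table, and entered every test. Members listed at 0 in some groups passed through the groups in which they were higher.

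RNA enriched with oligo(dT) was sequenced from mouse embryonic fibroblasts (MEFs) given transcription factors under a doxycycline (Dox) switch. In NSC medium 4 sets of factors were used: Klf4 with eSox17FNV, an engineered Sox17 (K_FNV), or Brn4, Klf4 and c-Myc with eSox17FNV (BKM_FNV), with Sox17 (BKM_Sox17) or with Sox2 (BKM_Sox2). These cells came from Sox2-GFP MEFs and were collected at days 4, 8, 12 and 18 on Dox and at days 24 and 30 after its removal. In the parallel experiment MEFs of another line, with Nanog-CreER, Rosa26-tdTomato and Sox2-GFP, received Klf4, c-Myc and eSox17FNV (KM_FNV) in N2B27 medium to day 8. They were then moved to LIF/2i, a medium for naive pluripotent cells with LIF, CHIR99021 and PD0325901, or to NSC medium, with Dox to day 16 and collections at days 12, 16, 20 and 24. The neural groups were 2 induced neural stem cell lines at passage 15 without Dox, iNSC_KF from Klf4 and eSox17FNV and iNSC_BKMF from the set of 4 factors, and primary Sox2-GFP neural stem cells (NSCs) at passage 15. The fibroblasts were Sox2-GFP MEFs at passage 1 in MEF medium, with no factors. There were 2 libraries a group, and 1 where day 30 of BKM_Sox17 or of BKM_Sox2 is concerned. MEFs differ from the cells with factors in medium and time as well as in the factors, and from the KM_FNV cells also in mouse line. They differ from the neural groups in medium, passage and cell type, and these differences cannot be told apart.

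Interferons are secreted signals that cells release when they sense viral nucleic acid. Type I interferon binds the receptor pair Ifnar1 and Ifnar2, the kinases Jak1 and Tyk2 act on transcription factors that include Stat2, and a complex with Irf9 forms that binds the interferon-stimulated response element (ISRE) in the promoters of its targets. Many of these targets are themselves sensors or transcription factors of the pathway, so that a low tonic signal keeps them expressed in fibroblasts, while pluripotent stem cells are known to respond weakly to interferon.

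Promoter sequences of members are shown because the ISRE is the element through which these genes are known to be induced together. RefSeq promoters of build GRCm38.p6, from 250 bases before to 50 bases after each start, were found for 27 of the 36 members. The ISRE core was searched on both strands as GAAA, any 2 bases and GAAA again, and 13 of the 27 members (48.1%) held at least 1 match, against 3.99% of 27025 genes. The longer form with C after the last A, which contains the core, stood in 11 of 27 (40.7%), against 0.944% of all genes. The interferon gamma activated site, searched as TTCNNNGAA, stood in 6 of 27 (22.2%), against 9.55% of all genes. A match describes the letters of this window and not a bound site. Stretches of 60 bases follow for members whose values recur below, written 5′ to 3′ on the strand of the gene, with ISRE core matches, in either orientation, in capitals.
Isg15: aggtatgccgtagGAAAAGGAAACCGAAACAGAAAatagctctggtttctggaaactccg
Ifit1: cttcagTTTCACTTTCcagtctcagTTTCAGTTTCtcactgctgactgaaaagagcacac
Oas1a: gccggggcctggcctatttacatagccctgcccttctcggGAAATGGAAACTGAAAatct
Gbp2: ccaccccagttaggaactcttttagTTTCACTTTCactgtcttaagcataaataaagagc
Bst2: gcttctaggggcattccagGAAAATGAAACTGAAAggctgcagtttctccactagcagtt
Rsad2: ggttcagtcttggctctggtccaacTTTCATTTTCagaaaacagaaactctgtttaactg
The Isg15 stretch lies at chr4:156200850-156200909 on the minus strand and holds 3 overlapping matches. That of Ifit1 lies at chr19:34640779-34640838 on the plus strand with 2 separate matches, and that of Oas1a at chr5:120907526-120907585 on the minus strand with 2 overlapping ones. The Gbp2 stretch is chr3:142620579-142620638 on the plus strand, the Bst2 stretch chr8:71537562-71537621 on the minus strand and the Rsad2 stretch chr12:26456538-26456597 on the minus strand. Irf7, Trim25, Herc6 and Cmpk2, which are described below, had a promoter in the table without a match to the ISRE core.

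Tag counts normalized by the authors are given throughout, so read depth is unknown, and the columns had been brought to nearly equal sums, 17698392 to 17710071 in the NSC-medium table and 17848683 to 17866021 in the parallel table. One library, BKM_Sox2 day 24 replicate 1, stood apart, with a sum of 15873664, a median of 32 and a correlation of 0.0578 with its replicate, and was left out. Marker genes were checked against the labels. The summed level of 8 neural stem cell genes was 72406 to 78640 in iNSC_KF, 113994 to 115187 in iNSC_BKMF and 116939 to 117096 in NSCs, but 2256 to 3144 in K_FNV cells at days 24 and 30, against 1748 to 1873 in MEFs. The sum over 10 fibroblast genes was 157543 to 215722 in K_FNV cells after Dox, against 237981 to 240689 in MEFs, and 6 of the 10 were called lower and 2 higher. In LIF/2i at day 24 the sum of 7 naive pluripotency genes was 51463 to 52191, against 1382 to 3461 in NSC medium. MEFs also held macrophage and blood markers (12 genes, summed level 3657 to 3964, none at 0), which summed to 33 to 106 in the 6 neural libraries with 6 to 10 of the 12 genes at 0.

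Interferon-stimulated genes were low in all neural groups. Of the 35 members, 31 fell in iNSC_KF, 31 in iNSC_BKMF and 31 in NSCs, each against MEFs, and none rose. Of all 20760 genes tested, 15.9%, 17.9% and 16.7% were called lower in these comparisons and 16.7%, 18.9% and 17.7% higher. A gene was called when limma's test gave an adjusted p below 0.05 and an absolute log2 fold change of at least 1. The 3 comparisons share the MEF libraries. The median log2 fold change over the members was -4.43 in iNSC_KF, -3.60 in iNSC_BKMF and -3.99 in NSCs, against 0.03, 0.02 and 0.06 over all genes. Without the members listed at 0 in the neural group, for which no fold can be given, the medians were -2.66, -3.39 and -2.79. Fewer cells of a type that expresses these genes and less RNA per cell cannot be told apart in such bulk samples, and the part of the macrophage markers that differ between these groups was not tested.

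Several members were listed at 0 in every neural library. Bst2, or tetherin, which holds budding virus particles on the cell surface, was listed at 0 in all 6 neural libraries, against 2784 and 2579 in MEFs (limma, adjusted p = 1.03e-14 in NSCs). Trim25, the ubiquitin ligase that acts with the RNA sensor RIG-I, was also at 0 in all 6, against 1960 and 2042 in MEFs (adjusted p = 1.53e-26 in NSCs). Ifit1, which binds viral RNA lacking cap methylation, was at 0 in all 6, against 951 and 930 in MEFs (adjusted p = 9.28e-12 in NSCs). These genes separated the neural groups from MEFs with no overlap, as Oas1a and Mx1 did, which were likewise listed at 0 in the 6 neural libraries. The oligoadenylate synthetase Oas1a activates the RNA-degrading enzyme RNase L, and Mx1 is an antiviral GTPase.

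Other members were low but present in some neural libraries. Ifih1, the sensor MDA5, had 108 and 0 in iNSC_KF, 0 and 114 in iNSC_BKMF and 0 and 0 in NSCs, against 884 and 866 in MEFs (adjusted p = 2.23e-07 in NSCs). Irf7, the transcription factor that amplifies interferon gene transcription, had 3 and 2 in iNSC_KF and 0 in the 4 libraries of iNSC_BKMF and NSCs, against 673 and 796 in MEFs (adjusted p = 1.51e-07 in iNSC_BKMF). Isg15, the ubiquitin-like modifier, had 21 and 6 in iNSC_KF, 7 and 19 in iNSC_BKMF and 0 and 4 in NSCs, against 1026 and 1175 in MEFs. In NSCs its log2 fold change was -8.31 ± 1.03 (SE, adjusted p = 5.95e-08), and no neural library reached the MEF level for any of these genes. Oasl2, an OAS-like protein, had 0 and 0 in iNSC_KF, 0 and 21 in iNSC_BKMF and 0 and 27 in NSCs, against 922 and 927 in MEFs (adjusted p = 2.63e-08 in iNSC_KF).

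By role, all 4 sensors, all 9 effectors on RNA, all 3 measured GTPases and all 3 ADP-ribosylation genes fell in NSCs, as did 3 of 4 transcription factors, 3 of 4 genes of the ISG15 system and 6 of 8 membrane and other effectors. Among the smaller changes, the interferon-induced kinase Eif2ak2 (PKR), which stops translation, had 303 and 366 in iNSC_KF, 418 and 377 in iNSC_BKMF and 422 and 374 in NSCs, against 1353 and 1431 in MEFs (log2 -1.80 ± 0.29 in NSCs, adjusted p = 4.40e-06). Samd9l, an inhibitor of translation, had 605 and 667, 628 and 739, and 720 and 694 in iNSC_KF, iNSC_BKMF and NSCs, against 2082 and 2189 in MEFs (log2 -1.59 ± 0.16 in NSCs, adjusted p = 1.40e-09). All neural libraries lay below both MEF libraries for these genes as well. The other 20 members called in NSCs were Ddx58, Dhx58, Zbp1, Irf1, Irf9, Usp18, Ifit2, Ifit3, Oas2, Oas3, Oasl1, Gbp2, Gbp3, Xaf1, Rtp4, Ifi35, Ifi44, Parp9, Parp14 and Dtx3l, with values of 0 to 242 in NSCs, against 56 to 2702 in MEFs. Ddx58, the RNA sensor RIG-I, had 197 and 242 in NSCs, against 2702 and 2684 in MEFs.

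Herc6, Cmpk2 and Rsad2 were not called in any of the 3 neural comparisons. Herc6, the ligase that attaches Isg15 in the mouse, had 351 and 336 in iNSC_KF, 448 and 457 in iNSC_BKMF and 480 and 446 in NSCs, against 474 and 508 in MEFs (log2 -0.08 ± 0.13 in NSCs, adjusted p = 0.663). Cmpk2, a mitochondrial nucleotide kinase, had 170 and 170, 190 and 171, and 198 and 176 in the same groups, against 225 and 208 in MEFs (log2 -0.21 ± 0.55 in NSCs, adjusted p = 0.835). For both genes the difference in NSCs was smaller than its standard error. Stat2 just missed the threshold in NSCs, with 470 and 599, against 1111 and 1149 in MEFs (log2 -1.09 ± 0.47, adjusted p = 0.0510).

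**Figure D1:**
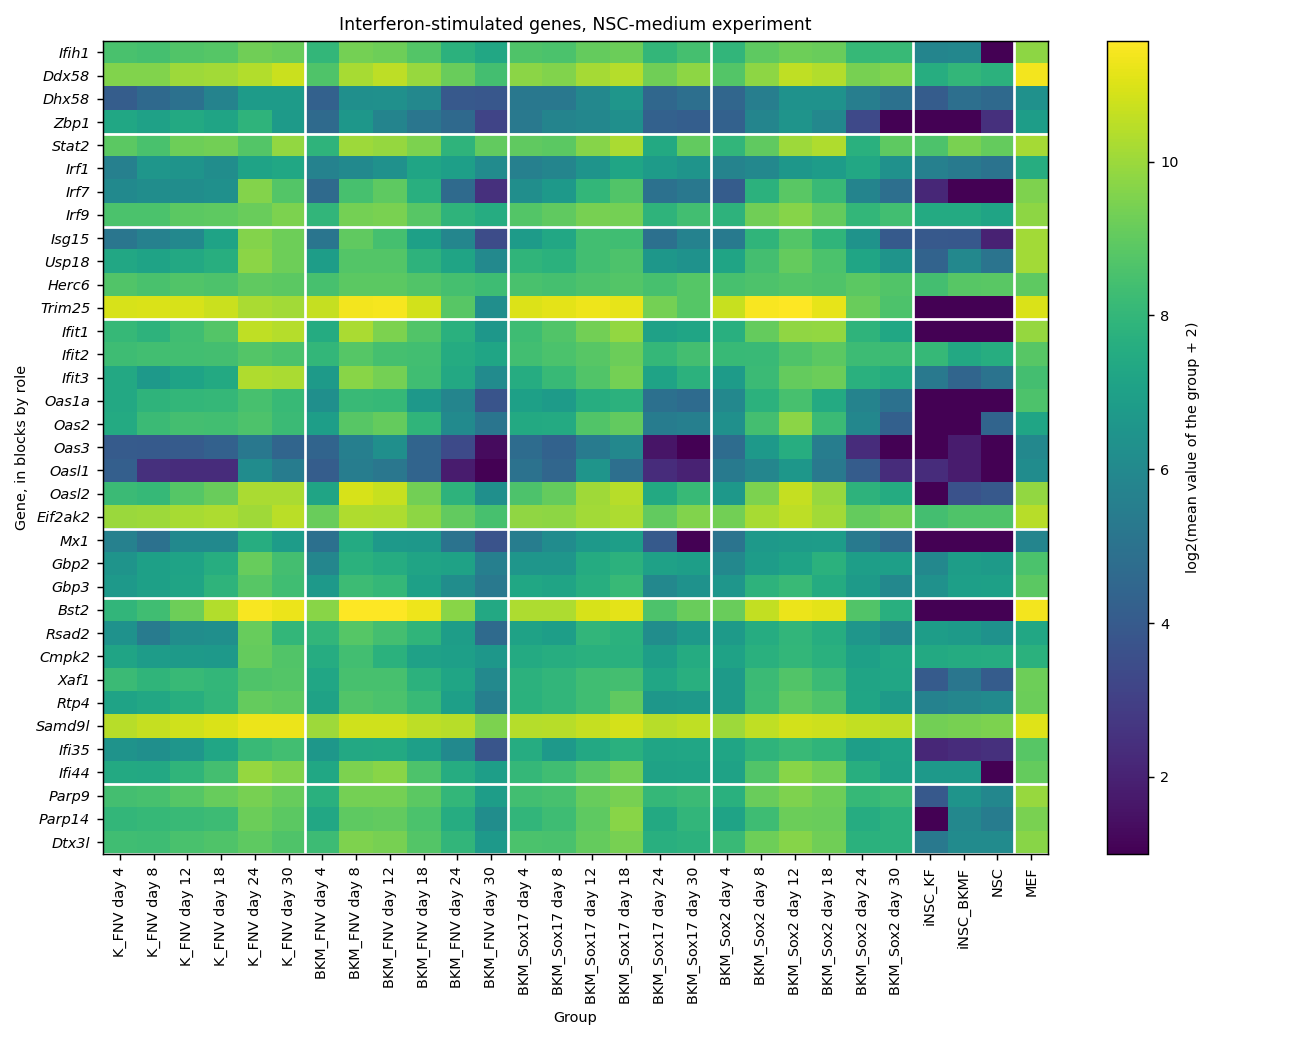
Level of each of the 35 measured interferon-stimulated genes (rows, in blocks by role) in each group of the NSC-medium experiment (columns), as log2 of the group's mean value plus 2, dark for low and bright for high. In each neural column 31 of the 35 genes were called lower than in MEFs, the columns of BKM_FNV darken from day 12 to day 30, and the 2 K_FNV columns after Dox are bright. Those 2 columns average replicates that differed. Their median member values were 897 and 189 at day 24, and 714 and 189 at day 30, in replicates 1 and 2.

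Members were already lower at day 4. Averaged over the 4 sets of factors in NSC medium, 22 of 35 members fell at day 4 against MEFs and none rose (8.33% of all genes were called lower and 9.79% higher), with a median log2 fold change of -1.75 over the members and -0.02 over all genes. The macrophage and blood markers differed too, with 11 of 12 called lower at day 4, and 6 of 10 fibroblast markers were called lower and 4 of 5 epithelial markers higher. Their part in this result was not tested. Isg15 had 20 and 47 in K_FNV, 30 and 35 in BKM_FNV, 74 and 146 in BKM_Sox17 and 60 and 15 in BKM_Sox2, against 1026 and 1175 in MEFs (log2 -4.63 ± 0.82, adjusted p = 2.41e-05). Irf7 had 37 and 89, 18 and 29, 51 and 93, and 25 and 5 in the same order of groups, against 673 and 796 in MEFs (log2 -4.40 ± 0.89, adjusted p = 0.000130). All 8 day 4 libraries lay below both MEF libraries for these genes.

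Usp18, the protease that removes Isg15 and restrains the receptor, had 103 and 216 in K_FNV, 90 and 140 in BKM_FNV, 217 and 266 in BKM_Sox17 and 179 and 103 in BKM_Sox2 at day 4, against 1119 and 1078 in MEFs (log2 -2.83 ± 0.88, adjusted p = 0.00807). Gbp2, a guanylate-binding protein that attacks membranes around pathogens, had 61 and 112, 43 and 67, 99 and 85, and 66 and 52, against 381 and 385 in MEFs (log2 -2.42 ± 0.35, adjusted p = 1.16e-06). By contrast, Trim25, at 0 in the neural groups, had 1755 and 2157, 1665 and 1556, 2143 and 1972, and 1807 and 1457, against 1960 and 2042 in MEFs (log2 -0.15 ± 0.14, adjusted p = 0.401). Day 4 and MEF libraries overlapped for Trim25 and not for the other genes just named. All 4 transcription factors and all 3 ADP-ribosylation genes fell at day 4, but only 3 of 9 effectors on RNA, namely Ifit1, Oas1a and Oasl2.

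Levels varied over the Dox period, and the day with the highest level for most members was not the same in all sets of factors. The highest mean was taken over all days from 4 to 30. In BKM_FNV cells 22 members had it at day 8 (12.1% of all genes) and 12 at day 12 (8.38%), and in BKM_Sox2 cells 27 had it at day 12 (5.1%). In K_FNV cells 24 had it at day 24 (22.6%) and 10 at day 30 (22.9%), days after Dox on which the replicates differed, as described below. In BKM_Sox17 cells 24 were higher without overlap at day 12 than at day 8 (24.3% of all genes), and 29 were highest at day 18 (14.1% of all genes). Day 12 replicate 1 of these cells, the higher of its pair in 33 members, had a macrophage and blood marker sum of 1621, against 202 in replicate 2 and 258 to 382 at day 8, and its part was not tested. In BKM_FNV cells all 35 members were higher at day 8 than at day 4 with no overlap between the libraries, as were 26.3% of all genes, and 32 were lower at day 18 than at day 12, as were 22.4% of all genes. In BKM_Sox2 cells 32 members were higher without overlap at day 8 than at day 4 (22.5% of all genes) and 33 higher at day 12 than at day 8 (22.2% of all genes). In K_FNV cells 3 members were above and 2 below at day 8 relative to day 4, where 25.4% of all genes lay above and 25.4% below.

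Isg15 is given as an example of these courses. Over days 4, 8, 12, 18, 24 and 30 it had 30 and 35, 426 and 589, 277 and 413, 84 and 170, 58 and 54, and 7 and 11 in BKM_FNV cells. In BKM_Sox2 cells it had 60 and 15, 292 and 192, 336 and 519, and 309 and 166 at days 4 to 18, then 84 and 14 in the single libraries used of days 24 and 30. In BKM_Sox17 cells it had 74 and 146, 127 and 194, 442 and 207, and 243 and 394 at days 4 to 18, 27 and 28 at day 24 and 49 at day 30. The day 8 libraries of BKM_FNV cells lay above all its other libraries, and every Isg15 value of these 3 sets of factors lay below both MEF libraries.

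**Figure D2:**
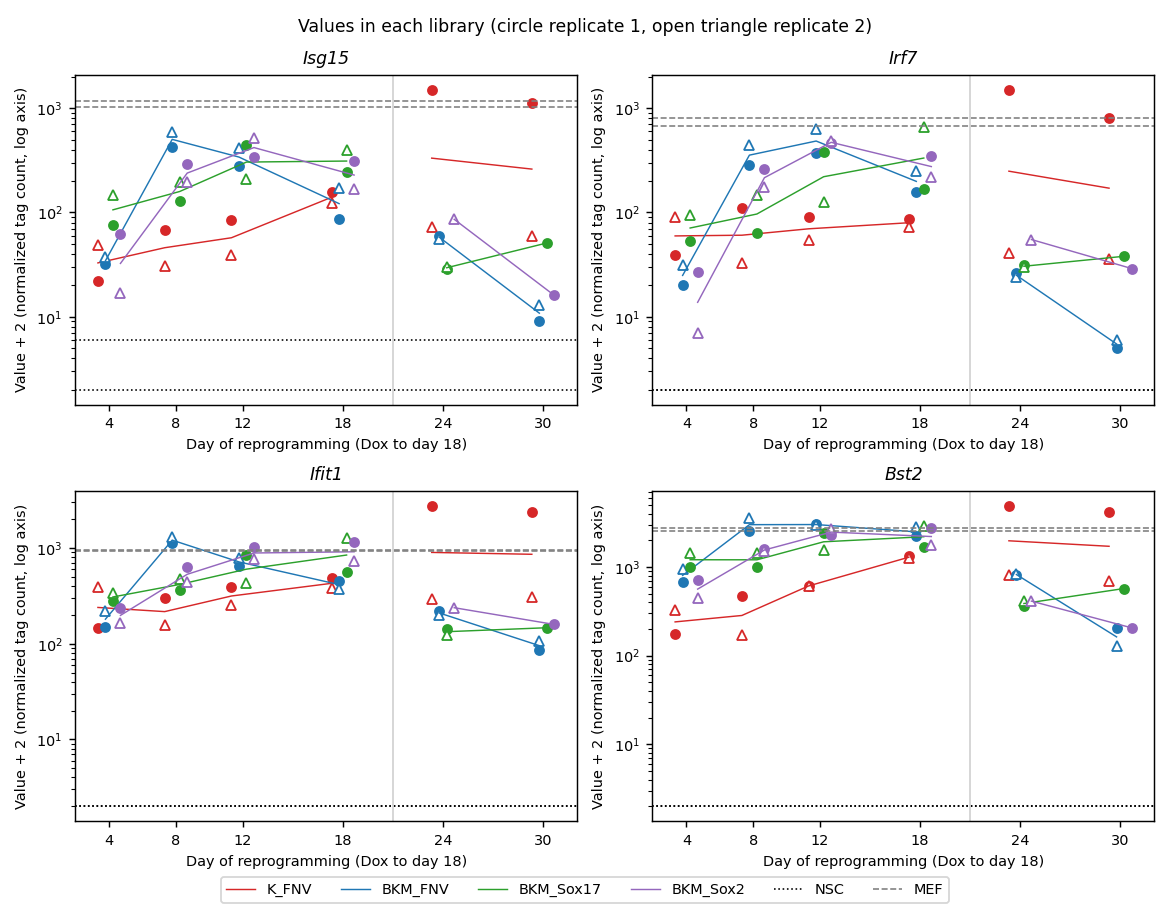
Values of Isg15, Irf7, Ifit1 and Bst2 in every library (value plus 2, log axis) by day for the 4 sets of factors in NSC medium, with a gray line between the days on and after Dox, the mean of the log values as lines, and NSC and MEF libraries as dotted and dashed lines. In BKM_FNV cells the 4 genes were higher at day 8 than at day 4 and lowest at day 30, while 1 of the 2 K_FNV libraries lay above both MEF libraries at day 24 for all 4 genes.

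Tested between day 18 and day 4, the number of members that rose was 3 in K_FNV cells (5.40% of all genes called higher), 9 in BKM_FNV cells (11.4%), 5 in BKM_Sox17 cells (9.36%) and 19 in BKM_Sox2 cells (8.95%). No member fell in any of them, where 4.97%, 11.5%, 9.66% and 8.01% of all genes were called lower. Fibroblast markers rose in the same comparisons, 3 of 10 in K_FNV, 4 in BKM_FNV, 3 in BKM_Sox17 and 6 in BKM_Sox2 cells, with 1 lower in K_FNV and 1 in BKM_FNV cells. Epithelial markers rose too, 3 of 5 in K_FNV and 4 of 5 in BKM_FNV cells, as did 5 of 7 naive pluripotency markers in each of these. The part of these markers was not tested. In BKM_Sox2 cells Irf7 had 348 and 215 at day 18, against 25 and 5 at day 4 (log2 4.33 ± 1.12, adjusted p = 0.00245). Oasl2 had 1064 and 908 at day 18, against 140 and 54 at day 4 (log2 3.47 ± 1.05, adjusted p = 0.00857), and Ifit3 had 635 and 539, against 138 and 80 (log2 2.45 ± 0.92, adjusted p = 0.0335). Isg15 rose as well (log2 2.82 ± 1.03, adjusted p = 0.0298), and the day 18 libraries lay above the day 4 libraries for each of these genes. The count in BKM_Sox2 cells was 6 without day 4 replicate 2 and 12 without day 18 replicate 1. That day 18 library had a macrophage and blood marker sum of 1621, against 636 in day 18 replicate 2, and 679 to 754 at day 4.

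In BKM_FNV cells the members that rose by day 18 included Irf7, with 156 and 248, against 18 and 29 at day 4 (log2 3.00 ± 1.12, adjusted p = 0.0296), and Mx1, with 102 and 93, against 27 and 28 (log2 1.75 ± 0.50, adjusted p = 0.00489). Dhx58, or LGP2, a regulator of RNA sensing, had 61 and 58, against 18 and 17 (log2 1.66 ± 0.59, adjusted p = 0.0217), and Bst2 had 2208 and 2804, against 673 and 956 (log2 1.63 ± 0.61, adjusted p = 0.0291). None of these groups overlapped. The count of 9 was 3 without day 18 replicate 2, 5 without day 18 replicate 1 and 4 without day 4 replicate 1.

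The 5 members that rose in BKM_Sox17 cells were Parp14, Irf1, Mx1, Stat2 and Gbp2. Parp14, an ADP-ribosyltransferase, had 611 and 1057 at day 18, against 239 and 254 at day 4 (log2 1.70 ± 0.45, adjusted p = 0.00272). Irf1, a transcription factor also induced by interferon gamma, had 118 and 176, against 45 and 49 (log2 1.58 ± 0.29, adjusted p = 4.47e-05). Mx1 had 127 and 110 at day 18, against 28 and 57 at day 4 (log2 1.51 ± 0.50, adjusted p = 0.0158). Stat2, a part of the ISRE-binding complex, had 879 and 1542, against 476 and 542 (log2 1.19 ± 0.47, adjusted p = 0.0418). The day 18 libraries lay above the day 4 libraries in each case. The count was 2 without day 18 replicate 2 or without day 4 replicate 1, and 3 without day 4 replicate 2.

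In K_FNV cells Bst2, Dhx58 and Gbp2 rose. Bst2 had 1327 and 1250 at day 18, against 174 and 326 at day 4 (log2 2.42 ± 0.61, adjusted p = 0.00288). Dhx58 had 49 and 52, against 13 and 18 (log2 1.60 ± 0.59, adjusted p = 0.0406), and Gbp2 had 165 and 218, against 61 and 112 (log2 1.18 ± 0.44, adjusted p = 0.0425). These groups did not overlap, but 1 member was called without day 18 replicate 1, 1 without day 18 replicate 2 and 0 without day 4 replicate 1.

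Over the 4 days on Dox, 1 member was higher in K_FNV than in BKM_FNV cells (7.50% of all genes called higher) and 7 were lower (6.97% called lower). Of the markers, 5 of 10 fibroblast genes were higher and none lower, 6 of 12 macrophage and blood genes were higher and 2 lower, and 5 of 5 epithelial genes were lower, and their part was not tested. Zbp1, a sensor of Z-form nucleic acid that can trigger cell death, had 156 and 156 at day 4, 166 and 95 at day 8, 177 and 161 at day 12 and 138 and 150 at day 18 in K_FNV cells, against 23 and 23, 88 and 103, 45 and 59, and 31 and 37 in BKM_FNV cells (log2 1.69 ± 0.33, adjusted p = 8.55e-05). The groups overlapped at day 8 alone. Bst2 had 174 and 326, 472 and 168, 605 and 614, and 1327 and 1250 in K_FNV cells, against 673 and 956, 2546 and 3539, 3049 and 2972, and 2208 and 2804 in BKM_FNV cells (log2 -2.10 ± 0.30, adjusted p = 9.68e-07). Here the K_FNV libraries were the lower ones on every day. Rsad2, or viperin, an enzyme that makes a chain terminator of viral RNA synthesis, had 46 and 116, 66 and 15, 92 and 51, and 94 and 58 in K_FNV cells, against 255 and 233, 422 and 465, 286 and 388, and 256 and 220 in BKM_FNV cells (log2 -2.33 ± 0.44, adjusted p = 4.62e-05), again without overlap on any day.

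The other members lower in K_FNV cells on Dox were Oasl1 (log2 -2.03 ± 0.51, adjusted p = 0.00129), Isg15 (log2 -1.47 ± 0.52, adjusted p = 0.0173), Ifit3, Irf7 and Ifi44. Oasl1, which limits Irf7 translation in the mouse, had 13 and 20, 6 and 1, 4 and 2, and 4 and 2 in K_FNV cells over days 4, 8, 12 and 18, against 15 and 16, 36 and 50, 31 and 38, and 23 and 16 in BKM_FNV cells. Isg15 had 20 and 47, 66 and 29, 82 and 37, and 156 and 122 in K_FNV cells, against 30 and 35, 426 and 589, 277 and 413, and 84 and 170 in BKM_FNV cells. Oasl1 overlapped at day 4, and Isg15 at days 4 and 18.

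After Dox was removed, most members were low in BKM_FNV cells. Over days 24 and 30, 31 of 35 members were lower than in MEFs and none was higher (11.9% of all genes called lower and 13.6% higher), with a median log2 fold change of -2.49 against -0.05 over all genes. Of the macrophage and blood markers 12 of 12 were lower too, with sums of 149 to 296 at day 24 and 47 to 59 at day 30, against 3657 to 3964 in MEFs, and their part was not tested. Irf7 had 24 and 22 at day 24 and 3 and 4 at day 30, against 673 and 796 in MEFs (log2 -5.97 ± 0.97, adjusted p = 6.45e-06). Isg15, with the values given above, changed by -5.46 ± 0.90 (log2, adjusted p = 7.15e-06). Oasl1 had 2 and 1 at day 24 and 0 and 0 at day 30, against 80 and 56 in MEFs (log2 -4.71 ± 0.89, adjusted p = 4.92e-05). Ifi35, an interferon-induced leucine zipper protein, had 70 and 57 at day 24 and 12 and 12 at day 30, against 454 and 443 in MEFs (log2 -3.90 ± 0.45, adjusted p = 2.41e-08). No BKM_FNV library reached the MEF level for these genes.

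Most members were lower still on the second of these days, with 33 below their day 24 libraries at day 30 without overlap, as were 30.2% of all genes. Trim25 had 71 and 73 at day 30, against 462 and 447 at day 24, and Bst2 had 205 and 126, against 816 and 825. Over the same days the summed neural stem cell markers were 15677 to 16421 at day 30, against 9514 to 9524 at day 24. The epithelial markers summed to 60 to 66 at day 30, against 9338 to 9375 at day 24, and the naive pluripotency markers to 275 to 282, against 3135 to 3143, and their part was not tested. Stat2 was higher at day 30 without overlap (43.5% of all genes), with 591 and 446, against 219 and 243 at day 24.

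Few members were called after Dox when eSox17FNV was set against another Sox factor. Against BKM_Sox17 cells, BKM_FNV cells had 1 member higher (9.67% of all genes called higher) and 2 lower (8.15% called lower). Ifi35 had 70 and 57 at day 24 and 12 and 12 at day 30 in BKM_FNV cells, against 129 and 162, and 149 in BKM_Sox17 cells (log2 -2.30 ± 0.41, adjusted p = 3.37e-05). Trim25 had 462 and 447, and 71 and 73 in BKM_FNV cells, against 644 and 683, and 437 in BKM_Sox17 cells (log2 -1.56 ± 0.14, adjusted p = 6.18e-10). Mx1 had 43 and 19, and 11 and 11 in BKM_FNV cells, against 13 and 15, and 0 in BKM_Sox17 cells (log2 1.82 ± 0.40, adjusted p = 0.000368). The groups did not overlap on either day for these genes, and no member was called without the single BKM_Sox17 library of day 30.

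Against BKM_Sox2 cells, with 1 library used per day, BKM_FNV cells had 1 member higher (8.72% of all genes called higher) and 3 lower (6.42% called lower). Ifi35, with the BKM_FNV values just given, was at 119 and 138 in BKM_Sox2 cells at days 24 and 30 (log2 -2.11 ± 0.45, adjusted p = 0.000344), and Trim25 at 576 and 395 (log2 -1.38 ± 0.16, adjusted p = 5.14e-08), both above BKM_FNV cells on each day. Dhx58 had 15 and 12 at day 24 and 13 and 12 at day 30 in BKM_FNV cells, against 44 and 29 in BKM_Sox2 cells (log2 -1.34 ± 0.51, adjusted p = 0.0333). Zbp1 had 20 and 25 at day 24 and 3 and 11 at day 30 in BKM_FNV cells, against 8 and 0 in BKM_Sox2 cells (log2 1.65 ± 0.58, adjusted p = 0.0210). These counts hang on single libraries, as 10 members were called without BKM_Sox2 day 24 replicate 2, none without the BKM_Sox2 library of day 30 and 2 without BKM_FNV day 30 replicate 2.

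In K_FNV cells after Dox the 2 libraries of each day differed from each other. On both days all 35 members were higher in replicate 1 than in replicate 2, with a median log2 difference of 2.21 at day 24 and 1.93 at day 30 over the members. At least 2-fold higher values in replicate 1 were found for 31 members on each day, against 5.32% of all genes at day 24 and 5.66% at day 30. On both days together the count was 30 of 35 members (85.7%), against 327 of 20760 genes (1.58%). The median member value was 897 in replicate 1 and 189 in replicate 2 at day 24, and 714 and 189 at day 30, against 582 and 559 in MEFs. Because of this split, median changes in K_FNV cells after Dox are given with each replicate left out as well. This choice was made after the data were seen. Each day then holds 1 K_FNV library, so counts of called members from these fits carry no spread between K_FNV libraries. Such counts are left out here and appear only among the alternative runs in the last section. The fit of all libraries takes them as independent, although the same replicate was the higher on both days.

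Irf7 had 1509 and 39 at day 24 and 811 and 34 at day 30 in K_FNV cells, against 673 and 796 in MEFs. Isg15 had 1510 and 71 at day 24 and 1132 and 58 at day 30, against 1026 and 1175 in MEFs. Ifit1 had 2740 and 294, and 2407 and 306 in K_FNV cells, against 951 and 930 in MEFs. In each of these genes replicate 2 lay below both MEF libraries, while replicate 1 lay above both MEF libraries at day 24. Ifit3 had 2263 and 243 at day 24 and 2143 and 248 at day 30 in K_FNV cells, against 322 and 350 in MEFs. Bst2 had 4852 and 802, and 4178 and 700, against 2784 and 2579 in MEFs. For both genes, too, the MEF libraries lay between the K_FNV replicates on both days.

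The same count was made for other lists. Of 43 further interferon-induced genes 25 (58.1%) were at least 2-fold higher in replicate 1 on both days. This held for 0 of 9 nucleic acid sensing adaptors and kinases, 0 of 8 inhibitors of interferon signalling and 0 of 3 interferon ligands. It held for 1 of 12 receptors and signal transducers, 1 of 12 macrophage and blood markers and 1 of 5 endothelial markers. Among fibroblast, neural stem cell, naive pluripotency and epithelial markers it held for 0 of 10, 0 of 8, 0 of 7 and 0 of 5. In the neural stem cell and epithelial lists 1 gene each was at least 2-fold higher in replicate 2 on both days. The summed macrophage and blood markers were 567 and 353 at day 24 and 296 and 258 at day 30, against 3657 to 3964 in MEFs. They were thus higher in replicate 1 on both days, and their part was not tested. Ifnb1, the gene of interferon beta, had 65 in replicate 1 and 0 in replicate 2 at day 24 and was listed at 0 in both libraries of day 30.

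**Figure D3:**
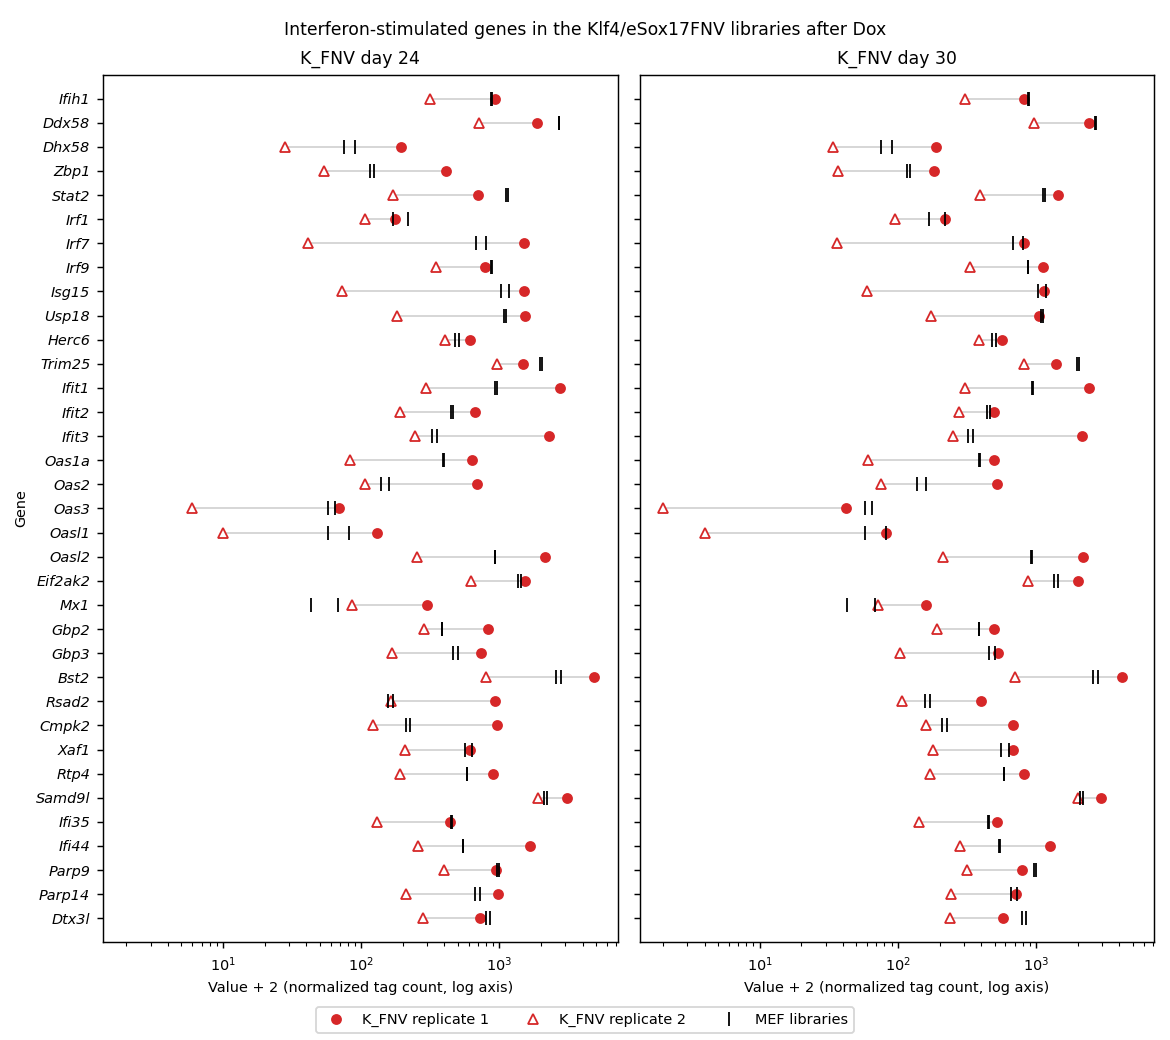
Values of the 35 measured interferon-stimulated genes (value plus 2, log axis) in the K_FNV libraries of day 24 and day 30, with replicate 1 as filled circles, replicate 2 as open triangles and both MEF libraries as black ticks. Replicate 1 lies to the right of replicate 2 in all 35 genes on both days, by at least 2-fold in 31 on each day.

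With both replicates, 1 member was higher (10.7% of all genes called higher) and 4 were lower (8.37% called lower) in K_FNV cells after Dox than in MEFs, and the median log2 fold change was -0.57 over the members and -0.03 over all genes. With replicate 1 left out on both days the median log2 fold change was -1.51 over the members and -0.04 over all genes. With replicate 2 left out the median was 0.38 over the members and -0.04 over all genes. Leaving out a single library gave 12 called members without day 24 replicate 1, 14 without day 30 replicate 1, 3 without either replicate 2 library and 2 without either MEF library. The number of called members thus depended on the replicate kept.

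Mx1 had 295 and 84 at day 24 and 158 and 70 at day 30 in K_FNV cells, against 66 and 41 in MEFs (log2 1.28 ± 0.44, adjusted p = 0.0161), and all 4 K_FNV libraries lay above both MEF libraries. Ddx58 had 1868 and 714, and 2424 and 964 in K_FNV cells, against 2702 and 2684 in MEFs (log2 -1.02 ± 0.29, adjusted p = 0.00498). Dtx3l, a ubiquitin ligase that works with Parp9, had 716 and 280, and 573 and 237, against 847 and 793 in MEFs (log2 -1.01 ± 0.29, adjusted p = 0.00507). These K_FNV libraries lay below the MEF libraries throughout. Oas3 had 67 and 4, and 40 and 0, against 63 and 56 in MEFs (log2 -2.17 ± 0.85, adjusted p = 0.0342), and Stat2 had 694 and 168, and 1437 and 393, against 1111 and 1149 in MEFs (log2 -1.15 ± 0.41, adjusted p = 0.0200). For Oas3 and Stat2 the K_FNV and MEF libraries overlapped.

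Against the 3 neural groups together, 31 of 35 members were higher in K_FNV cells after Dox and none was lower (18.5% of all genes called higher and 18.8% lower), with a median log2 fold change of 4.03, or 2.88 without the 5 members listed at 0 in all neural libraries, against -0.21 over all genes. With replicate 1 left out on both days the median log2 fold change was 2.94 over the members and -0.19 over all genes, with Stat2 at -1.02. With replicate 2 left out the median was 5.14 over the members and -0.22 over all genes. Trim25 had 1469 and 961 at day 24 and 1395 and 809 at day 30 in K_FNV cells and was listed at 0 in the neural libraries (adjusted p = 1.15e-30). Bst2 (adjusted p = 6.07e-19) and Ifit1 (adjusted p = 3.31e-16) were listed at 0 there as well. Oasl2 had 2143 and 252, and 2189 and 210 in K_FNV cells, against 0 to 27 in the neural libraries (log2 7.24 ± 0.68, adjusted p = 1.45e-10). Even the lower K_FNV replicate lay above every neural library for these genes. The macrophage and blood list had 5 of 12 genes higher and none lower in this comparison, and the fibroblast list 10 of 10 higher. Their part in the result was not tested.

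Between the 2 eSox17FNV sets of factors at the same days after Dox, 30 of 35 members were higher in K_FNV than in BKM_FNV cells and none was lower (10.9% of all genes called higher and 10.8% lower), with a median log2 fold change of 2.31 against 0.08 over all genes. Without replicate 1 of K_FNV on both days the median was 1.02 over the members and 0.08 over all genes. Without replicate 2 it was 3.41 over the members and 0.04 over all genes. Irf7 had 1509 and 39, and 811 and 34 in K_FNV cells, against 24 and 22, and 3 and 4 in BKM_FNV cells (log2 4.14 ± 0.79, adjusted p = 6.13e-05). Isg15 had 1510 and 71, and 1132 and 58 in K_FNV cells, against 58 and 54, and 7 and 11 in BKM_FNV cells (log2 3.56 ± 0.73, adjusted p = 0.000146). The K_FNV libraries were above the BKM_FNV libraries of the same day in both genes, by a narrow margin in replicate 2 at day 24.

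Oasl1 had 129 and 8, and 80 and 2 in K_FNV cells, against 2 and 1, and 0 and 0 in BKM_FNV cells (log2 3.28 ± 0.73, adjusted p = 0.000346). Ifi35 had 440 and 128, and 518 and 141, against 70 and 57, and 12 and 12 in BKM_FNV cells (log2 3.08 ± 0.37, adjusted p = 3.73e-08). All 8 membrane and other effectors, 8 of 9 effectors on RNA, 3 of 4 sensors and 2 of 4 transcription factors were higher in K_FNV cells. Of the wider pathway, 26 of 43 further interferon-induced genes, 4 of 12 receptors and signal transducers, 4 of 9 adaptors and kinases and 3 of 8 inhibitors were higher, with 1 receptor or transducer and 1 inhibitor lower. Among the higher genes were Slfn2 (log2 4.34 ± 0.48, adjusted p = 1.01e-08), Psmb8 of the immunoproteasome (log2 3.77 ± 0.46, adjusted p = 6.32e-08) and the kinase Ikbke (log2 2.59 ± 0.13, adjusted p = 7.97e-16). Neural stem cell markers differed in the other direction, with 7 of 8 lower in K_FNV cells, as did 5 of 5 epithelial and 5 of 7 naive pluripotency markers, and 2 of 12 macrophage and blood markers were higher. Their part in the result was not tested.

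**Figure D4:**
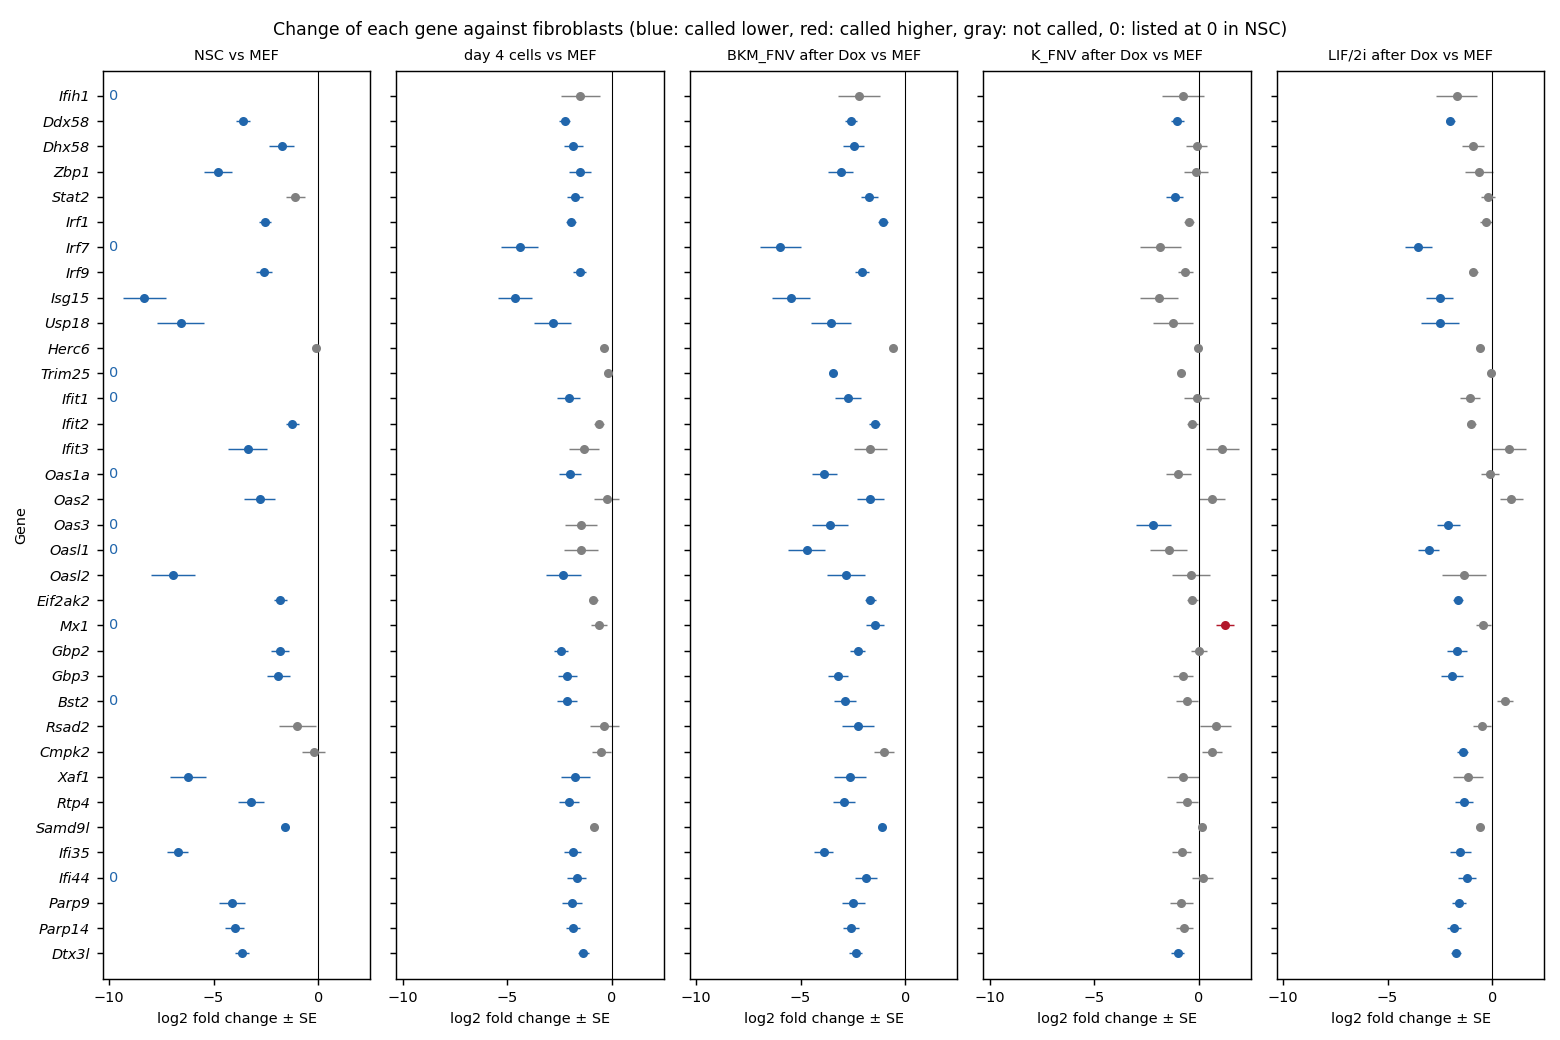
Log2 fold change (± SE) of each measured interferon-stimulated gene against MEFs in 5 comparisons, with called genes in color and genes listed at 0 in NSC marked by 0 in place of a point. Most points lie left of 0 for NSC (31 called), day 4 (22 called), BKM_FNV after Dox (31 called) and LIF/2i after Dox (16 called), and for K_FNV after Dox 28 of 35 points lie left of 0, with 4 called lower and 1 higher.

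Differences between replicates in the same direction across the members were not confined to K_FNV after Dox. In 12 of 25 groups with 2 libraries in the NSC-medium table, and in 3 of 13 in the parallel table, at least 30 of the 35 members were on the same replicate's side. No such count was made for other lists of genes. At day 4, for example, replicate 2 was higher than replicate 1 in K_FNV cells for all 35 members, by at least 2-fold for 10 (3.95% of all genes). At day 8 of the parallel experiment replicate 2 was higher for all 35 members, by at least 2-fold for 29 (4.58% of all genes), with a median value of 1096 in replicate 2 and 416 in replicate 1. What set the replicates apart was not tested.

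In the parallel experiment few members were called in the first days in N2B27 medium. At day 4, 5 of 35 members were lower than in MEFs and none was higher (8.54% of all genes called lower and 9.88% higher), with a median log2 fold change of -0.36 against -0.05 over all genes. Of the markers, 10 of 12 macrophage and blood genes were lower, 4 of 5 epithelial genes were higher and 1 lower, and 3 of 10 fibroblast genes were lower and 2 higher, and their part was not tested. Oas3 had 5 and 4 in day 4 cells, against 73 and 65 in MEFs (log2 -3.45 ± 0.63, adjusted p = 0.000497), and Oasl1 had 12 and 16, against 90 and 65 (log2 -2.31 ± 0.60, adjusted p = 0.00658). Ddx58 had 1176 and 903, against 2532 and 2516 in MEFs (log2 -1.29 ± 0.23, adjusted p = 0.000370), and Parp14 had 314 and 246, against 643 and 709 (log2 -1.27 ± 0.38, adjusted p = 0.0162). The groups did not overlap, and the remaining called member was Irf1. The count was 2 without MEF replicate 1. Isg15, in contrast to day 4 in NSC medium, had 2302 and 1115 at day 4, against 959 and 1104 in MEFs (log2 0.64 ± 0.74, adjusted p = 0.550), and the difference between these experiments, which were normalized apart, was not tested.

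From day 4 to day 8 in N2B27, 2 members rose and none fell (3.00% of all genes called higher and 1.71% lower). Irf1 had 478 and 784 at day 8, against 88 and 101 at day 4 (log2 2.67 ± 0.33, adjusted p = 0.000136), and Gbp2 had 365 and 1667, against 197 and 199 (log2 1.97 ± 0.53, adjusted p = 0.0268). Both genes were above the day 4 libraries in both replicates. Without the lower day 8 replicate 1 the count was 18, and it was 1 without day 8 replicate 2 or either day 4 library. In replicate 2 Ifit1 reached 5535 and Oasl2 5248, against 956 and 968 in replicate 1.

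After day 8 the medium was associated with the level of many members. On Dox, at days 12 and 16, 14 of 35 members were lower in LIF/2i than in NSC medium and none was higher (7.45% of all genes called lower and 8.06% higher), and after Dox, at days 20 and 24, 16 were lower and none was higher (12.3% called lower and 12.2% higher). The median log2 fold change was -0.99 and -0.98 over the members and -0.03 and -0.10 over all genes. A set of 10 members was lower in both periods: Dhx58, Gbp2, Gbp3, Ifi35, Ifi44, Ifit1, Irf7, Isg15, Oasl1 and Parp14. The count after Dox was 10 without NSC medium day 20 replicate 2, the higher of its pair in all 35 members.

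Irf7 had 74 and 39, 131 and 41, 154 and 79, and 31 and 33 at days 12, 16, 20 and 24 in LIF/2i, against 389 and 625, 780 and 402, 777 and 1647, and 247 and 154 in NSC medium. Its log2 fold change was -3.02 ± 0.54 on Dox (adjusted p = 0.000356) and -2.93 ± 0.54 after Dox (adjusted p = 0.000275). Isg15 had 167 and 78, 387 and 156, 626 and 244, and 85 and 77 in LIF/2i, against 765 and 1235, 583 and 453, 1181 and 2234, and 392 and 390 in NSC medium (log2 -2.06 ± 0.53, adjusted p = 0.00504 on Dox, and -2.15 ± 0.53, adjusted p = 0.00266 after Dox). The LIF/2i libraries were below those in NSC medium on every day for both genes.

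Oasl1 had 1 and 3, 3 and 2, 7 and 11, and 5 and 8 in LIF/2i, against 39 and 47, 33 and 21, 45 and 65, and 17 and 16 in NSC medium (log2 -3.10 ± 0.42, adjusted p = 2.88e-05 on Dox, and -1.76 ± 0.42, adjusted p = 0.00234 after Dox). Gbp2 had 125 and 166, 204 and 196, 148 and 128, and 106 and 95 in LIF/2i, against 806 and 2015, 995 and 432, 462 and 518, and 199 and 210 in NSC medium (log2 -2.42 ± 0.38, adjusted p = 9.53e-05 on Dox). Oasl2 had 704 and 452 at day 20 and 231 and 185 at day 24 in LIF/2i, against 1913 and 3221, and 934 and 860 in NSC medium (log2 -2.12 ± 0.85, adjusted p = 0.0444 after Dox). None of these groups overlapped on the days compared.

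The smallest adjusted p among the members after Dox belonged to Ddx58, Cmpk2 and Eif2ak2, although their changes were smaller. Eif2ak2 had 365 and 388 at day 20 and 484 and 436 at day 24 in LIF/2i, against 856 and 1195, and 819 and 835 in NSC medium (log2 -1.13 ± 0.19, adjusted p = 9.44e-05). Cmpk2 had 94 and 91, and 73 and 77 in LIF/2i, against 186 and 368, and 242 and 185 in NSC medium (log2 -1.48 ± 0.22, adjusted p = 3.42e-05). Ddx58 had 771 and 780, and 462 and 569, against 1443 and 2120, and 929 and 1143 in NSC medium (log2 -1.09 ± 0.16, adjusted p = 3.20e-05). The 3 genes were lower in every LIF/2i library than in the NSC-medium libraries of the same day.

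Other members did not follow. Bst2 had 6057 and 3412 at day 20 and 3329 and 3203 at day 24 in LIF/2i, against 5538 and 7687, and 1900 and 1913 in NSC medium (log2 0.13 ± 0.32, adjusted p = 0.763). Oas1a had 441 and 351, and 345 and 314 in LIF/2i, against 291 and 505, and 135 and 127 in NSC medium (log2 0.68 ± 0.36, adjusted p = 0.124). For both genes the media overlapped at day 20, and LIF/2i was the higher at day 24. Trim25 had 1762 and 1680, and 2016 and 1806 in LIF/2i, against 1569 and 2168, and 1168 and 1234 in NSC medium (log2 0.28 ± 0.10, adjusted p = 0.0221), which is below the 2-fold needed for a call.

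**Figure D5:**
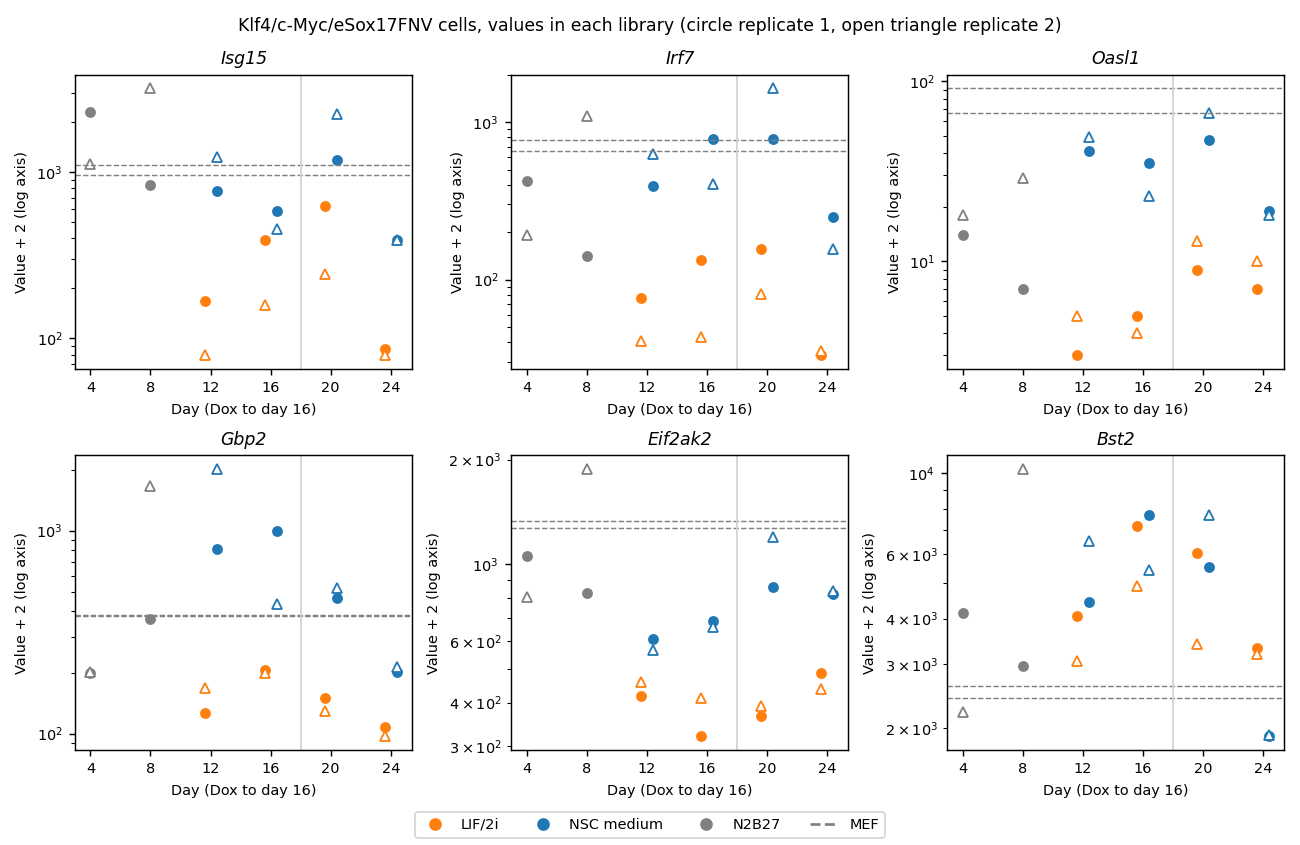
Values of Isg15, Irf7, Oasl1, Gbp2, Eif2ak2 and Bst2 in every KM_FNV library (value plus 2, log axis) by day, in N2B27 to day 8 and then in LIF/2i or NSC medium, with a gray line between the days on and after Dox, with both MEF libraries as dashed lines. LIF/2i libraries lie below NSC-medium libraries of the same day for the first 5 genes, while Bst2 was higher in LIF/2i at day 24 (3329 and 3203, against 1900 and 1913).

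Receptors and signal transducers of the pathway were lower in LIF/2i as well. After Dox 10 of 12 were lower and 1 was higher, among them Ifnar1 (879 and 871, and 702 and 769 in LIF/2i at days 20 and 24, against 1983 and 1879, and 1831 and 1892 in NSC medium, log2 -1.24 ± 0.05, adjusted p = 3.79e-11). The media did not overlap for this gene. The gene that was higher in LIF/2i was Ifnlr1, the receptor chain for interferon lambda (log2 1.17 ± 0.16, adjusted p = 1.84e-05). Of 43 further interferon-induced genes 20 were lower and 3, Ifitm1, Sp110 and Phf11d, were higher. Ifnk, the gene of interferon kappa, had 221 and 227 at day 20 and 208 and 200 at day 24 in LIF/2i and was listed at 0 in NSC medium on these days (adjusted p = 0.000121).

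Marker lists moved with the medium too. On Dox 7 of 7 naive pluripotency markers were higher in LIF/2i, while 3 of 5 endothelial, 3 of 10 fibroblast and 2 of 12 macrophage and blood markers were lower, and 1 endothelial, 1 epithelial and 1 fibroblast marker were higher. The summed macrophage and blood markers at day 16 were 290 to 385 in LIF/2i, against 1022 to 1073 in NSC medium. After Dox 7 of 7 naive pluripotency markers were higher in LIF/2i, 3 of 5 epithelial markers were higher and none lower, and 4 of 12 macrophage and blood markers were higher and none lower. The summed macrophage and blood markers at day 24 were 444 to 732 in LIF/2i with 2 to 3 genes at 0, against 138 to 165 in NSC medium with 3 to 4 genes at 0. The part of these lists in the difference between media was not tested.

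Against MEFs, 16 of 35 members were lower in LIF/2i after Dox and none was higher (16.5% of all genes called lower and 15.9% higher), with a median log2 fold change of -1.22 against -0.08 over all genes. The largest falls were in Irf7 (log2 -3.53 ± 0.67, adjusted p = 0.000285), Oasl1 (log2 -3.04 ± 0.52, adjusted p = 0.000109), Isg15 (log2 -2.51 ± 0.64, adjusted p = 0.00314) and Usp18. Usp18 had 298 and 257 at day 20 and 120 and 115 at day 24 in LIF/2i, against 1053 and 1016 in MEFs (log2 -2.51 ± 0.92, adjusted p = 0.0276). All LIF/2i libraries lay below the MEF libraries for these genes. In NSC medium after Dox, 1 member was higher (12.0% of all genes called higher) and 1 lower (9.22% called lower) than in MEFs. Oas2 had 898 and 1713, and 295 and 216 in NSC medium, against 167 and 146 in MEFs (log2 1.83 ± 0.54, adjusted p = 0.0110), and Oas3 had 33 and 46, and 4 and 11, against 73 and 65 (log2 -1.90 ± 0.55, adjusted p = 0.00908). Neither overlapped with MEFs, but no member was called without MEF replicate 1 and 1 without MEF replicate 2. The LIF/2i and NSC-medium comparisons share the MEF libraries. MEFs had a macrophage and blood marker sum of 3624 to 3923 in this experiment. In LIF/2i the sum was 679 to 740 at day 20 and 444 to 732 at day 24. In NSC medium it was 306 to 361 at day 20 and 138 to 165 at day 24. The part of these markers in the differences from MEFs was not tested.

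Averaged over the days of each period, the change from the Dox period to the days after Dox was small for most members in both media. In NSC medium this average joins a rise to day 20 and a fall to day 24, which is given below. There 20 members were higher without overlap at day 20 than at day 16 (29.3% of all genes), and 0 were lower (37.2% of all genes). In LIF/2i, 1 member rose, Oasl1, with 7 and 11, and 5 and 8 at days 20 and 24, against 1 and 3, and 3 and 2 at days 12 and 16 (log2 1.19 ± 0.42, adjusted p = 0.0354, with 6.40% of all genes called higher and 5.16% lower), and no member was called without LIF/2i day 12 replicate 1, day 16 replicate 1, day 16 replicate 2, day 20 replicate 2 or day 24 replicate 2. In NSC medium 4 members fell and none rose (9.33% of all genes called lower and 11.2% higher). Gbp2 had 462 and 518, and 199 and 210 after Dox, against 806 and 2015, and 995 and 432 on Dox (log2 -1.52 ± 0.38, adjusted p = 0.00291), and Zbp1 had 146 and 282, and 29 and 48, against 203 and 548, and 283 and 123 (log2 -1.49 ± 0.55, adjusted p = 0.0319). Oas3 had 33 and 46, and 4 and 11 after Dox, against 26 and 43, and 62 and 32 on Dox (log2 -1.10 ± 0.45, adjusted p = 0.0483), and Ifi35 had 481 and 683, and 134 and 217, against 567 and 852, and 798 and 516 (log2 -1.09 ± 0.42, adjusted p = 0.0386). The periods overlapped for all 4 genes, and the count was 1 without NSC medium day 12 replicate 2, day 16 replicate 1, day 20 replicate 1 or day 24 replicate 1.

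Most members were lower at day 24 than at day 20. In LIF/2i 27 members were lower without overlap at day 24 than at day 20 (34.0% of all genes), and in NSC medium 33 were (36.6% of all genes). In LIF/2i 3 members were higher at day 24 without overlap (26.4% of all genes), among them Irf1, with 281 and 204, against 101 and 122 at day 20. In NSC medium Isg15 had 392 and 390 at day 24, against 1181 and 2234 at day 20, and Ifit1 had 510 and 500, against 1228 and 3079. Whether the change after Dox differed between media was tested as an interaction, in which 0 of 35 members were called, with 6 at an unadjusted p below 0.05 (Ddx58, Irf1, Oas1a, Oas3, Oasl1 and Cmpk2), while limma called 13.9% of all genes.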

How the data were processed

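The submitters' processing notes name Bowtie2 2.0, RSEM and the build mm10. The authors deposited normalized tag counts, which have no per-million unit and are not raw counts, so that they were handled as a score. They form 2 tables normalized apart, with 54 and 26 columns matched to labelled samples, and 4 other columns matched none and were not used. Columns of a table share nearly the same distribution, read depth is unknown, and no counting interval is given. Levels are not compared between genes. RSEM divides reads among similar genes, so values of Oas1a and its relatives, Ifit3 and Ifit3b, Oasl1 and Oasl2, Gbp2 and Gbp3, and Mx1 and Mx2 are uncertain where their reads are shared. Without stated strand use, overlapping genes cannot be told apart.

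From these values log2 of the value plus 2 was computed, and for either table limma 3.58.1 (R 4.3.3) fitted group means in 1 model, letting the variance follow the mean. Genes needed values of 10 or more in 2 or more libraries, which left 20760 and 20468 genes. A comparison over several days or groups averaged the differences. Tests were two-sided, adjusted by Benjamini and Hochberg over all genes of a comparison, and a gene was called at an adjusted p below 0.05 and an absolute log2 fold change of at least 1. "Rose", "fell", "higher" and "lower" with a test refer to called genes. In data simulated for K_FNV after Dox against MEFs (20807 genes), 81% of genes changed by log2 1.5 and 91% of those changed by 3 were called, with 9 false calls. For LIF/2i after Dox against MEFs these shares were 86% and 84%, with 13 false calls. The changed genes were drawn from those with higher mean values, and genes varied independently. This recovery therefore need not hold for members with low values or for members that shift together. Whether replicates came from separate cultures is not labelled, and a p therefore reflects only the spread among these libraries, which may be technical. NSC columns matched their group but no replicate number.

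The members and lists were chosen with earlier results of these data known. In each comparison, values in every library are given for up to 4 called members with the largest rise and up to 4 with the largest fall, and further genes were named after their values were seen. BKM_Sox2 day 24 replicate 1 was left out of the fits because 18322 of its 21241 genes have values that only climb or stay level down the table, against at most 4569 in other libraries of that table.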

Additional observations from a re-analysis of the deposited data

How the results depend on the processing

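Counts are of called members in either direction. Shares of all genes called are not set beside counts of alternative runs, here or above. A shift in the members alone therefore cannot be read from them. The 3 neural comparisons with MEFs, BKM_FNV after Dox, K_FNV after Dox against neural groups, and LIF/2i after Dox against MEFs stayed within 1.5 times their count under every alternative run. With BKM_Sox2 day 24 replicate 1 kept, counts were 9 for day 4, 1 for K_FNV after Dox against MEFs, 2 for BKM_FNV against BKM_Sox2, and between day 18 and day 4 they were 1 in BKM_FNV, 0 in BKM_Sox17, 3 in BKM_Sox2 and 0 in K_FNV. Trim25 then reversed in BKM_FNV against BKM_Sox2 (log2 0.66, limma, adjusted p = 0.533). With the compared groups alone, counts were 0 for K_FNV after Dox against MEFs, 16 for BKM_FNV between day 18 and day 4, 1 for N2B27 between day 8 and day 4, 0 for LIF/2i after against on Dox, 5 for NSC medium after Dox against MEFs and 2 for the interaction. Rescaling by median ratio gave 2 for K_FNV after Dox against MEFs and 2 for NSC medium after against on Dox. A pseudocount of 10 gave 2 for BKM_FNV against BKM_Sox2, 0 for LIF/2i after against on Dox and 4 for NSC medium after Dox against MEFs, and a pseudocount of 1 gave 1 for NSC medium after against on Dox. Leaving out both replicate 1 libraries of K_FNV after Dox gave 21 against MEFs and 14 against BKM_FNV, and leaving out both replicate 2 libraries gave 8 against MEFs. In these fits each day holds 1 K_FNV library. Their counts carry no spread between K_FNV libraries, and nothing is concluded from them. Without the filter all 24 counts stayed the same by this measure. The cause of these shifts was not tested.

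Leaving out 1 library at a time, counts ran from 30 to 31 for NSCs, 30 to 30 for iNSC_BKMF, 31 to 31 for iNSC_KF, 18 to 22 for day 4, 2 to 14 for K_FNV and 26 to 31 for BKM_FNV after Dox, each against MEFs. They ran from 29 to 33 for K_FNV against neural groups, 25 to 32 for K_FNV against BKM_FNV after Dox and 6 to 10 on Dox, 0 to 4 for BKM_FNV against BKM_Sox17 and 0 to 10 against BKM_Sox2. Between day 18 and day 4 they ran from 3 to 6 in BKM_FNV, 2 to 7 in BKM_Sox17, 6 to 17 in BKM_Sox2 and 0 to 3 in K_FNV. In the parallel table they ran from 2 to 6 for N2B27 day 4, 1 to 18 for day 8, 10 to 14 and 10 to 16 for LIF/2i against NSC medium on and after Dox, 0 to 1 for LIF/2i and 1 to 5 for NSC medium after against on Dox, 12 to 16 and 0 to 3 for LIF/2i and NSC medium after Dox against MEFs, and 0 to 1 for the interaction. Over all genes and groups same-numbered replicates did not deviate together (median correlation 0.000346 and 0.00973), so the numbers were not taken to pair the libraries, although the members of K_FNV were higher in replicate 1 on both days after Dox. With a replicate block shared by all groups the counts of all 23 comparisons that could be fitted stayed within 1.5 times, and 81 of 81 named values kept their call. Such a block could change little where the deviations of same-numbered replicates are unrelated between groups. It also cannot take up a difference between replicates found in K_FNV cells alone, so nothing is concluded from it. In the NSC-medium experiment the share of genes at 0 was 14.5% to 14.8% in neural libraries and 13.5% and 13.4% in MEFs. It was 9.56% to 13.8% in the libraries used of cells with factors. Ifit1, at 0 in NSCs and iNSC_BKMF there, was at 1 in the same groups as normalized with the parallel experiment. Depth is unknown, so it cannot be said how far low values limit these comparisons.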
